A study of Mus musculus with 6 samples.

Results

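Lysosomes are the acidic compartments in which a cell degrades what it takes up and what it recycles. A proton pump, the V-ATPase, acidifies them, so that cathepsins and other hydrolases can cut proteins, lipids and sugars, and a coat of glycoproteins shields their membrane. Monocytes and macrophages are rich in these organelles, and many of the genes are known targets of the related transcription factors TFEB, TFE3 and MITF. The members described here are 34 such genes, chosen by symbol and grouped by role: 3 transcription factors, 5 membrane proteins, 8 cathepsins, 8 other hydrolases, 5 cofactors and transport proteins and 5 proton pump genes. A member was kept if a probe set, the group of short probes that measures a gene, carried its symbol alone, and the probe set with the highest mean over the 6 arrays stood for it. This held for 33 of 34 members, of 22180 genes with such a row. Glb1, the lysosomal beta-galactosidase, has no probe set that carries its symbol alone and was left out. All 33 passed the filter on dim genes, for which 3 or more arrays had to exceed their own 25th percentile and which left 18458 genes for the test.

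RNA came from mouse monocytes sorted by flow cytometry as CD11b+ CD11c- Ly6C-high cells, on 1 Mouse Gene 2.0 ST array per sample, from spleen (n = 3) and from tumor (n = 3). All mice had been given Th9 cells, a kind of helper T cell, 10 days before, so both groups share that treatment and no untreated group is part of the comparison. The strain field of the labels reads Th9; the sources used here give no mouse strain, age, genotype or kind of tumor. Whether each sample had a mouse of its own is not stated, and p-values then reflect sample-to-sample spread alone, possibly of technical origin. Levels are log2(intensity + 1), and a difference is tumor minus spleen on that scale, where 1 is a doubling; differences are given ± SE. Values of a gene are listed in the order of the arrays numbered 1, 2 and 3. Intensities of different probe sets are not comparable, so genes are not ranked by level.

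The arrays numbered 3 stood apart in both groups. Their median log2 intensities were 4.73 (spleen) and 4.76 (tumor), against 4.50 to 4.51 on the other 4, and number 3 was the highest array for 30 of 33 members within spleen and for 23 of 33 within tumor. Results are therefore also given with the replicate number as a block, which compares tumor with spleen inside each number. The sort markers were read next. Itgam, which encodes CD11b, had levels of 9.95, 9.96 and 10.21 in spleen and 9.12, 9.02 and 9.45 in tumor, and Itgax, which encodes the CD11c that the sort selected against, had levels of 11.06, 11.12 and 11.30 in spleen and 10.16, 10.27 and 10.50 in tumor. Ly6c2, a gene behind Ly6C staining, had levels of 6.55, 6.41 and 7.48 in spleen and 7.93, 8.23 and 8.72 in tumor. Of 8 monocyte markers 4 were called lower in tumor (Itgam, Itgax, Ccr2 and Csf1r) and 2 higher (Ly6c2 and Cd14), and their summed intensity was 17441 to 18318 in spleen and 14911 to 16159 in tumor. Such sums, here and below, mostly follow the brightest probe sets and do not weigh genes alike. The brightest here was Lyz2, at 13.11 to 13.35, which was not called. The bright Itgax goes against the label CD11c-, although the arrays read RNA and the sort read surface protein. Tissue macrophage markers, 8 genes, lay between 2.87 and 11.23 over the 6 arrays. The groups are therefore called the spleen and the tumor arrays, and the part of other cells in the results was not tested.

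Lysosome genes were mostly a little lower on the tumor arrays, with 1 clear exception. Differences of the 33 members ran from -0.83 to 1.07 with a median of -0.31, against a median of -0.05 over all genes tested, and 27 of 33 were below 0, which held for 58.6% of all genes. The members that fell were Npc1, Tfeb, Gusb, Hexa, Ctsa and Atp6v0d1, and the member that rose was Ctsc. These 7 passed limma's test at an adjusted p under 0.05 (Benjamini-Hochberg over all genes tested), which is what a gene being called means here; 10.6% of all genes were called. The 6 falls are 18.2% of the members, against 4.85% of all genes called lower, and the 1 rise is 3.03%, against 5.73% of all genes called higher.

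With the replicate block, 17 members were called lower and 2 higher (Ctsc and Npc2), against 17.3% and 11.7% of all genes. The blocked falls are 51.5% of the members. All 3 tumor values lay below all 3 spleen values in 17 of 33 members, against 15.5% of all genes, and all 3 lay above in 2, against 9.81%. The sign was the same in the pairs numbered 1, 2 and 3 for 30 of 33 members, negative in 25 and positive in 5. Such signs were not counted over all genes, so no share stands beside these numbers. The labels do not say that same-numbered arrays are pairs. The median difference of the members was -0.30 over the arrays numbered 1 and 2 and -0.33 in the pair numbered 3, so the members' median was about as low without the arrays that stood apart. On the arrays numbered 1 and 2 alone, 9 members were called lower and 2 higher, against 8.39% and 7.51% of all genes.

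The count of called falls depended on single arrays. Left out in turn, spleen 1, 2 and 3 left 1, 0 and 2 members called lower, and tumor 1, 2 and 3 left 0, 3 and 5, by limma at an adjusted p under 0.05. Calls over all genes, in either direction, went from 1952 to 1147, 1031, 1851, 1011, 1376 and 1924 in the same order. Members called in either direction went from 7 to 2, 1, 3, 1, 4 and 6, a larger share lost in each case, though on few genes. Calls over all genes were thus lost too, mainly without spleen 1, spleen 2, tumor 1 or tumor 2. Without spleen 3, all genes kept 1851 of 1952 calls, while the called falls of the members went from 6 to 2. The count at an unadjusted p under 0.05 was 8, 8, 8, 7, 8 and 14 in the same order, and between 25 and 27 members stayed below 0. The members' median was -0.19 without spleen 3 and between -0.35 and -0.25 without any other single array. Ctsc was called in all 6 cases. In sorted cells measured in bulk, fewer cells of a type and less RNA per cell cannot be told apart.

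**Figure D1:**
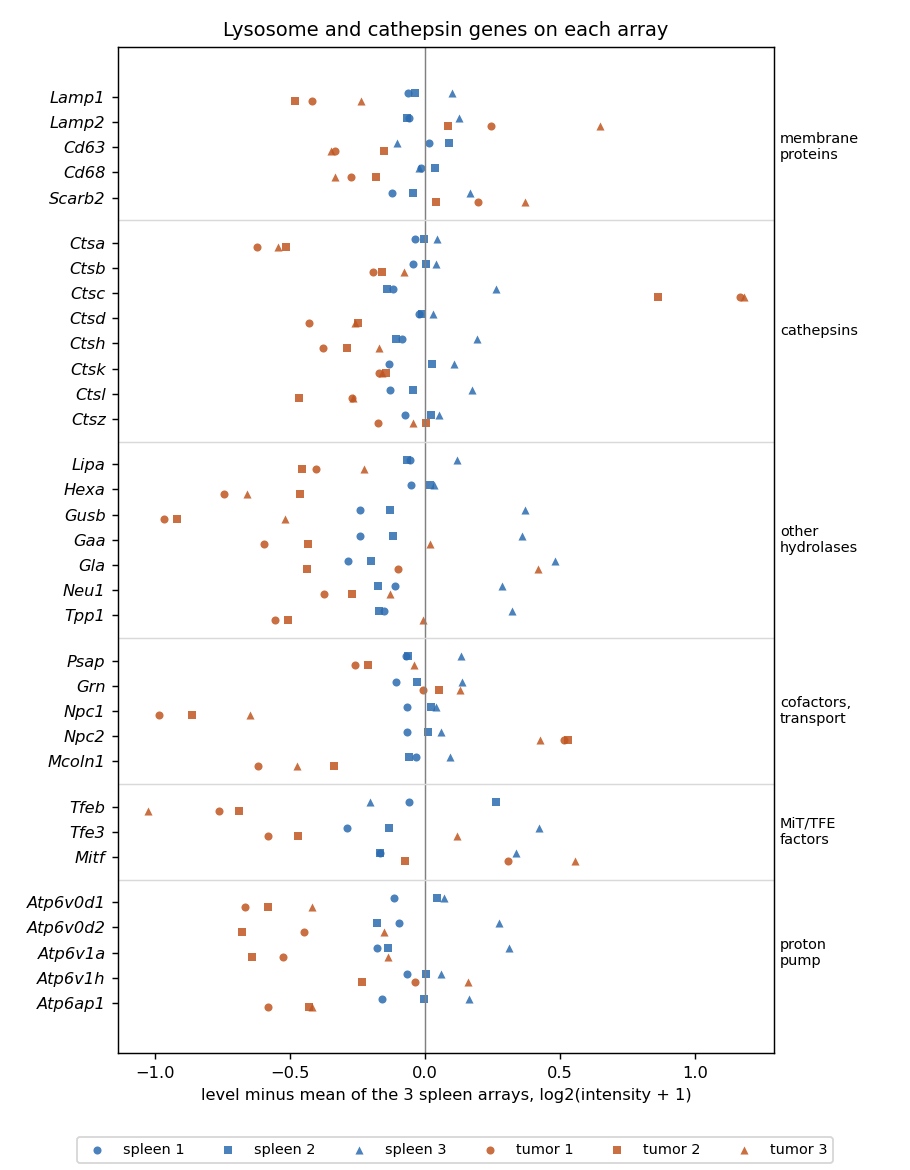
Level of each of the 33 lysosome and cathepsin genes on each array, as log2(intensity + 1) minus the mean of the 3 spleen arrays (x axis), with genes on the y axis grouped by role; blue points are spleen arrays, orange points tumor arrays, and circles, squares and triangles are the arrays numbered 1, 2 and 3. Most tumor points lie left of the spleen points, Ctsc lies far to the right, and the triangles lie to the right of the other points of their colour for most genes.

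Of the transcription factors, Tfeb fell while Tfe3 and Mitf were not called. TFEB, the best known activator of lysosomal genes, moves to the nucleus when nutrients run short or lysosomes are stressed. Its gene had levels of 5.91, 6.23 and 5.76 in spleen and 5.20, 5.28 and 4.94 in tumor, so every tumor array lay below every spleen array. The fall of 0.83 ± 0.18 leaves 56.4% of the spleen intensity (limma adjusted p = 0.0201), and pairs 1, 2 and 3 stood at -0.71, -0.95 and -0.82. Without spleen 1, spleen 2 or tumor 1, or after quantile normalization, which forces all arrays onto 1 distribution, Tfeb was no longer called (adjusted p = 0.0516 in the last case and up to 0.0972 in the others). Tfe3, which shares its targets with TFEB, had levels of 9.08, 9.24 and 9.79 in spleen and 8.79, 8.90 and 9.49 in tumor. Its groups overlap through the arrays numbered 3, and the difference of -0.31 ± 0.25 was called with the replicate block (adjusted p = 0.612 without it and 0.0361 with it) and with array weights (0.015). It was -0.10 without spleen 3 and -0.53 without tumor 3. Mitf, the family member best known from pigment cells and osteoclasts, had 7.71, 7.70 and 8.21 in spleen and 8.18, 7.80 and 8.43 in tumor, at 0.26 ± 0.22 (adjusted p = 0.626, and 0.113 with the block). Its 95% interval runs from -0.23 to 0.76, which spans a fall and a rise. Mitf was at 0.12 without tumor 3 and 0.43 without spleen 3, and with array weights it was called higher (0.41, adjusted p = 0.00863). Array weights called 7102 of the 18458 genes and 25 of the 33 members, against 1952 and 7 in the fit with group alone. A call in that setting, here and below, is therefore common. Tyr, Dct, Pmel, Mlana and Tyrp1, the pigment cell markers looked at beside Mitf, lay between 2.73 and 4.93 on all 6 arrays, and their summed intensity was 80.9 to 93.7 in spleen and 77.7 to 86.3 in tumor; of the 4 that could be tested, none was called (by limma, 0 also at an unadjusted p under 0.05).

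TFEB and its relatives bind an E-box, CACGTG, and prefer it flanked as TCACGTGA, the core of the motif known as CLEAR. Both were searched, with the intermediate TCACGTG, on both strands of RefSeq promoters (GRCm38.p6, 250 bases before to 50 after each start); the 3 motifs overlap, since each longer one holds the shorter. Promoters were found for 29 of 34 members, in 36 windows; Atp6v0d2, Atp6v1h, Ctsb, Ctsh and Npc1 had no entry. The palindrome TCACGTGA was in 6 of 36 windows (16.7%), against 0.974% of the 32851 windows of the table. TCACGTG was in 25% of the members' windows and 3.77% of all, and CACGTG in 27.8% and 7.15%. In 136 windows of other lysosome genes, which are no members, the shares were 8.09%, 18.4% and 20.6% in the same order. Many lysosome genes are known targets of these factors, so a high share was likely in advance and is no result of these data. These matches describe the letters in the windows and show no binding. The stretches below are shown because they hold the motif in members measured here; each is written 5′ to 3′ along its gene, and capitals mark CACGTG with a neighbouring T before it or A after it.

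Ctsa promoter (chr2:164833738-164833787, + strand): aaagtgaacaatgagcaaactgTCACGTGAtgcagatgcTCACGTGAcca
Ctsd promoter (chr7:142387897-142387948, - strand): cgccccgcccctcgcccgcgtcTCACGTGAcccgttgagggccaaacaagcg
Mcoln1 promoter (chr8:3500425-3500502, + strand): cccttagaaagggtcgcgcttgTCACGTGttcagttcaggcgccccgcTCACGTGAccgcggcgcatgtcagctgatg
Lamp1 promoter (chr8:13159077-13159173, + strand): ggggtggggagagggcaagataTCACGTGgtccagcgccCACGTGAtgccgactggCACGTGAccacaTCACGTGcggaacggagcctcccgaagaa
Atp6v0d1 promoter (chr8:105566050-105566090, - strand): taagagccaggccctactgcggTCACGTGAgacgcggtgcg
Gaa promoter (chr11:119267800-119267850, + strand): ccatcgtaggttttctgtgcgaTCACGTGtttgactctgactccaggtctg
Atp6v1a promoter (chr16:44139362-44139413, - strand): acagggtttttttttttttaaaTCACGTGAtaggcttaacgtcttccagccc
Gla promoter (chrX:134601171-134601255, - strand): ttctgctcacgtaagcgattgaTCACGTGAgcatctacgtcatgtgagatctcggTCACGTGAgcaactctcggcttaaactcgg

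Lamp1 holds 4 such E-boxes within the 97 bases shown, and Ctsa and Gla hold the full palindrome 2 times each. In Ctsd a further E-box lies farther upstream and is not shown, nor are the E-boxes of Ctsl and of the unmeasured Glb1. The 6 measured members with TCACGTGA (Ctsa, Ctsd, Mcoln1, Atp6v0d1, Atp6v1a and Gla) had differences between -0.56 and -0.04, with a median of -0.46. Of these, 2 were called lower, Ctsa and Atp6v0d1, and 5 with the replicate block. The 22 members with a promoter but without the palindrome ranged from -0.83 to 1.07, with a median of -0.27 and 3 called lower, Tfeb, Gusb and Hexa. With the replicate block 10 of these 22 were called lower, and 17.3% of all genes were. All 9 measured members with any CACGTG were below 0, as were 13 of 19 without one. The values are given side by side and were not tested against each other.

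**Figure D2:**
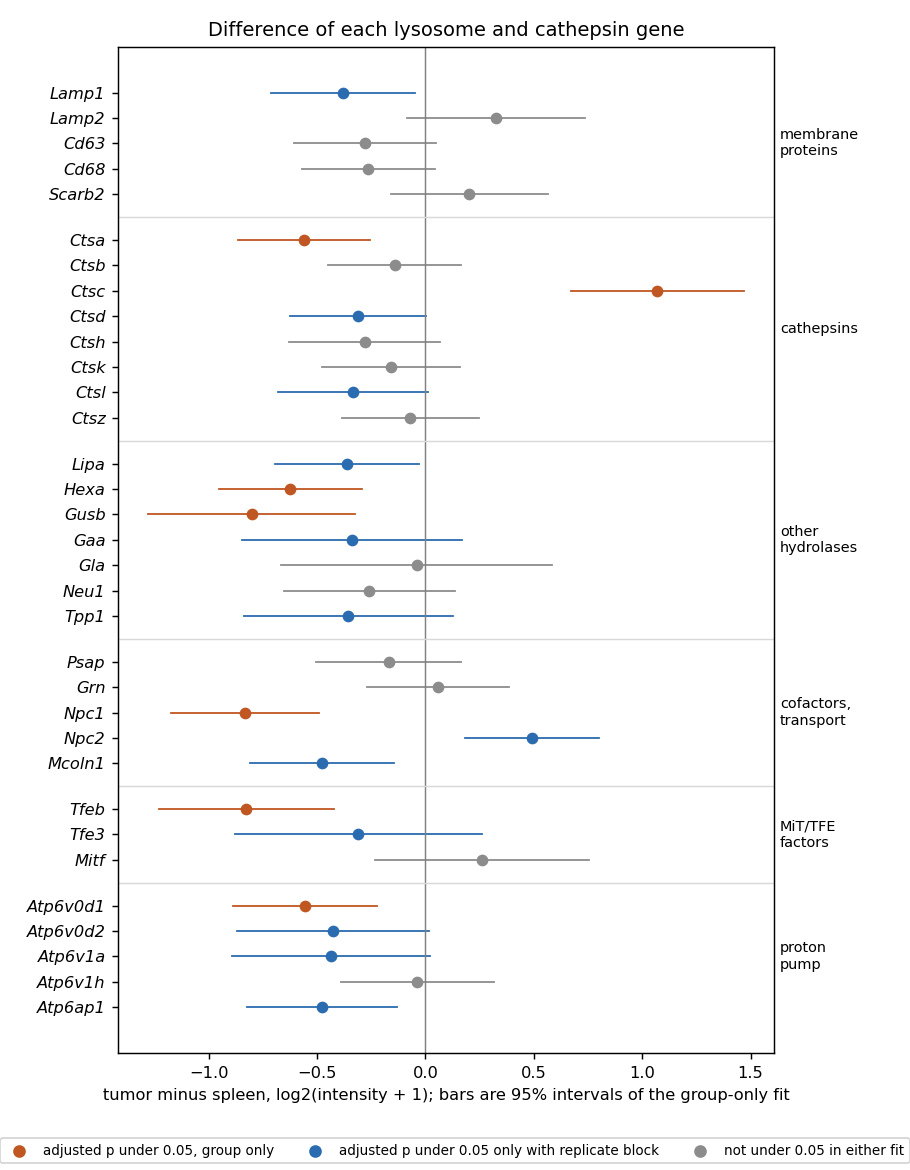
Difference of each of the 33 genes, tumor minus spleen on the log2(intensity + 1) scale (x axis), with 95% intervals from the fit with group alone; orange genes were called in that fit, blue genes in the fit with the replicate block and not in that one, grey genes in neither of both fits. In orange, 6 genes lie left of 0 and Ctsc lies right of it, and 12 genes are blue.

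None of the 5 membrane proteins was called, with adjusted p between 0.161 and 0.594 by limma and 1 of 5 at an unadjusted p under 0.05. LAMP1 and LAMP2 are the main glycoproteins of the lysosomal coat. Lamp1 had levels of 11.90, 11.92 and 12.06 in spleen and 11.54, 11.48 and 11.72 in tumor, and the groups do not overlap. Its difference of -0.38 ± 0.14 was called with the replicate block (adjusted p = 0.161 without and 0.0175 with it). Lamp1 was also called on the arrays numbered 1 and 2 (0.0339) and after quantile normalization (0.0192) or median centring (0.0403). In no fit with 1 array left out was it called. Lamp2, whose product also serves autophagy, stood on the other side, with 10.34, 10.34 and 10.53 in spleen and 10.65, 10.49 and 11.05 in tumor. The tumor values reach into the spleen range, and the difference was 0.33 ± 0.18 (adjusted p = 0.379, and 0.0558 with the block), or 0.16 without tumor 3. Cd63, a tetraspanin of late endosomes, and Cd68, a heavily glycosylated myeloid relative of the LAMPs, stood at -0.28 ± 0.14 and -0.26 ± 0.13, lower in each numbered pair but called in neither fit. Scarb2, or LIMP-2, carries glucocerebrosidase to the lysosome and lay at 0.20 ± 0.16 (95% interval -0.16 to 0.56). With array weights, Lamp1, Cd63 and Cd68 were called lower (limma adjusted p = 0.00227, 0.00355 and 0.0107). Lamp2 and Scarb2 were called higher in that setting (0.0178 and 0.0446).

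Cathepsins split into 1 rise and 1 fall. Ctsc, which encodes cathepsin C, a dipeptidyl peptidase that activates the serine proteases of immune cell granules, had levels of 10.93, 10.91 and 11.31 in spleen and 12.21, 11.91 and 12.23 in tumor. Every tumor array lay above every spleen array, and the rise of 1.07 ± 0.17 is 2.1-fold (limma adjusted p = 0.00576, and 0.000309 with the block). The pairs numbered 1, 2 and 3 stood at 1.28, 1.0 and 0.92. Ctsa encodes protective protein, or cathepsin A, a carboxypeptidase that also stabilises beta-galactosidase and neuraminidase. It had 11.54, 11.57 and 11.62 in spleen and 10.95, 11.06 and 11.03 in tumor, a fall of 0.56 ± 0.13 to 67.8% of the spleen intensity (adjusted p = 0.0316). Its groups are far apart for their spread, yet without any one of spleen 1, 2, 3 or tumor 1, 2 the call was lost (adjusted p up to 0.143).

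No endopeptidase among the members was called in the fit with group alone. Ctsd, the aspartic protease of the lysosome, had 13.04, 13.05 and 13.09 in spleen and 12.63, 12.81 and 12.80 in tumor, at -0.31 ± 0.14. Ctsl, a cysteine protease that also trims the invariant chain of MHC class II, had 10.15, 10.24 and 10.45 in spleen and 10.01, 9.81 and 10.01 in tumor, at -0.33 ± 0.15. In both genes all tumor arrays lay below all spleen arrays, and both were called lower with the replicate block (adjusted p = 0.0409 and 0.0456, and 0.235 and 0.251 without it) and with array weights (0.00297 and 0.0315). Ctsl was also called after quantile normalization (0.0308). Ctsb, a cysteine protease linked to cell death when it leaks from lysosomes, had 13.22, 13.27 and 13.30 in spleen and 13.07, 13.11 and 13.19 in tumor. The difference of -0.14 ± 0.13 has a 95% interval from -0.45 to 0.16, although no tumor array reached the spleen range. Ctsh, an aminopeptidase, stood at -0.28 ± 0.15, and Ctsz, a carboxypeptidase, at -0.07 ± 0.14, and neither was called in either fit. Ctsh was called lower after quantile normalization (limma adjusted p = 0.0476) and with array weights (0.0246). Ctsk, the collagenase of osteoclasts, had 9.53, 9.68 and 9.77 in spleen and 9.49, 9.51 and 9.50 in tumor, at -0.16 ± 0.14 (adjusted p = 0.661). The groups do not overlap, but the lowest spleen array lies just above the highest tumor array.

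Markers of other cells that use these proteases were read beside them. Of 6 osteoclast markers 2 were called lower, Mmp9 (-1.12 ± 0.17) and Dcstamp (-0.59 ± 0.14), or 5 with the replicate block, and the list's summed intensity was 646 to 679 in spleen and 405 to 439.7 in tumor. The defining marker Calcr lay between 3.57 and 3.94 on all arrays. Of 8 tissue macrophage markers 7 could be tested and 2 were called lower, C1qc (-0.74 ± 0.15) and C1qb (-0.64 ± 0.14), with sums of 5966 to 7724 in spleen and 5021 to 6932 in tumor, while Vsig4 was too dim to be tested. Of 8 neutrophil markers none was called (by limma, 0 at an unadjusted p under 0.05), with sums of 1385 to 1475 in spleen and 1185 to 1298 in tumor. Of 5 dendritic cell markers on the array 1 was called, Zbtb46, higher at 0.89 ± 0.17, with sums of 837 to 982 in spleen and 801 to 879 in tumor. Of 5 epithelial markers 1 was called, Krt19, lower at -0.92 ± 0.23, with sums of 272 to 364 and 224 to 326. No gene of the fibroblast, B cell, T and NK cell or erythroid lists was called with group alone (limma; 1 lower and 1 higher at an unadjusted p under 0.05, Col1a1 and Dcn). The replicate block added calls in these lists as it did among the members: C1qa, S100a8, Cd209a, Cdh1 and Col1a1 were lower (adjusted p = 0.0164, 0.0206, 0.0438, 0.0159 and 0.00649) and Dcn higher (0.0262). That fit called 17.3% of all genes lower and 11.7% higher. The part of such cells in the values of the lysosome genes was not tested.

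Other hydrolases were all below 0, and Hexa and Gusb fell. Gusb, the beta-glucuronidase that is a classical lysosomal marker enzyme, had 10.01, 10.12 and 10.62 in spleen and 9.28, 9.33 and 9.73 in tumor. The groups do not overlap, with number 3 the highest array in both, and the fall of 0.80 ± 0.21 leaves 57.4% of the spleen intensity (limma adjusted p = 0.0453, and 0.000629 with the block). Hexa, the alpha chain of the hexosaminidase that fails in Tay-Sachs disease, had 11.46, 11.53 and 11.54 in spleen and 10.76, 11.05 and 10.85 in tumor, a fall of 0.62 ± 0.14 (adjusted p = 0.028). Every tumor array again lay below every spleen array. Both calls were fragile. Leaving out any array other than tumor 3 ended the call of Gusb (adjusted p up to 0.186), which was at adjusted p = 0.0529 with no filter on dim genes. Leaving out any array other than tumor 2 ended that of Hexa (adjusted p up to 0.136), which was at 0.0628 among the arrays numbered 1 and 2.

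Lipa, the acid lipase that frees cholesterol and fatty acids from lipoproteins, had 12.66, 12.65 and 12.84 in spleen and 12.31, 12.26 and 12.49 in tumor, at -0.36 ± 0.15, with groups that do not overlap. Tpp1, a tripeptidyl peptidase, had 11.19, 11.18 and 11.67 in spleen and 10.79, 10.84 and 11.34 in tumor, at -0.36 ± 0.21. Gaa, which degrades glycogen, had 7.67, 7.79 and 8.27 in spleen and 7.31, 7.48 and 7.93 in tumor, at -0.34 ± 0.22. In the last 2 genes tumor 3 lay above spleen 1 and 2, so that the groups overlap although each numbered pair is lower in tumor. These 3 were called lower with the replicate block (adjusted p = 0.0201, 0.0217 and 0.0259, and 0.187, 0.421 and 0.491 without it) and with array weights (0.00422, 0.00895 and 0.00734). Lipa and Tpp1 were also called on the arrays numbered 1 and 2 (0.0372 and 0.0371), and Lipa after median centring (0.0467). Without spleen 3, Tpp1 was at -0.19 and Gaa at -0.16, and without tumor 3 they were at -0.53 and -0.52. Neu1, a sialidase, stood at -0.26 ± 0.17 and was not called in either fit. Gla, the alpha-galactosidase A of Fabry disease, stood at -0.04 ± 0.27, with pairs 1, 2 and 3 at 0.18, -0.24 and -0.07, and turned positive when spleen 3 or tumor 2 was left out.

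Among cofactors and transport proteins, the partners of cholesterol export stood on opposite sides. NPC2 picks up cholesterol inside the lysosome and hands it to NPC1 in the membrane. Npc1 had 10.28, 10.37 and 10.39 in spleen and 9.36, 9.48 and 9.70 in tumor, and its groups do not overlap. The fall of 0.83 ± 0.15 leaves 56.2% of the spleen intensity (limma adjusted p = 0.00903, and 0.000658 with the block). Without spleen 2 or tumor 1 the call was lost (adjusted p up to 0.056). Npc1 has a second, dim probe set with means of 4.10 in spleen and 4.33 in tumor, a difference of 0.23. The mean over both probe sets was not called (adjusted p = 0.588), so the fall rests on the brighter one.

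Npc2 had 11.24, 11.32 and 11.36 in spleen and 11.82, 11.84 and 11.73 in tumor, all tumor arrays above all spleen arrays. Its difference of 0.49 ± 0.13 missed the threshold (adjusted p = 0.0558) and passed it with the replicate block (0.00706), among the arrays numbered 1 and 2 (0.0204) and after quantile normalization (0.0378), among others. Mcoln1 encodes TRPML1, the calcium channel through which lysosomes can activate TFEB. It had 8.88, 8.85 and 9.0 in spleen and 8.29, 8.57 and 8.44 in tumor, at -0.48 ± 0.15, and was called with the block (adjusted p = 0.0818 without and 0.0115 with it). Mcoln1 was also called lower after quantile normalization (0.039), after median centring (0.0395) and with array weights (0.000777), among others, but in no fit with 1 array left out. The groups do not overlap. Psap, the precursor of the saposins that help hydrolases reach lipids, stood at -0.17 ± 0.15. Grn encodes progranulin, a regulator of lysosomal enzymes. It was the member nearest its spleen level among those above 0, at 0.06 ± 0.14 (95% interval -0.27 to 0.38). Its levels were 12.21, 12.29 and 12.45 in spleen and 12.31, 12.37 and 12.45 in tumor.

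The proton pump genes were all below 0, and Atp6v0d1 fell. V-ATPase has a membrane ring, V0, that passes protons and a cytosolic head, V1, that splits ATP. Atp6v0d1, the common d subunit that joins them, had 10.94, 11.10 and 11.13 in spleen and 10.39, 10.47 and 10.64 in tumor and fell by 0.56 ± 0.15 (limma adjusted p = 0.046, and 0.00329 with the block). The groups do not overlap, but the call was lost without any one of spleen 1, 2, 3 or tumor 1, 2 (adjusted p up to 0.194). Atp6v0d2, the d isoform of osteoclasts and some macrophages, had 11.90, 11.82 and 12.27 in spleen and 11.55, 11.32 and 11.85 in tumor, at -0.43 ± 0.19. Atp6v1a, the catalytic subunit of the head, had 10.40, 10.44 and 10.89 in spleen and 10.05, 9.93 and 10.44 in tumor, at -0.43 ± 0.20. In both, tumor 3 reached the spleen range, and Atp6v1a was at -0.28 without spleen 3. Atp6ap1, an accessory protein of pump assembly, had 10.94, 11.09 and 11.26 in spleen and 10.51, 10.67 and 10.68 in tumor, at -0.48 ± 0.15, without overlap. With the replicate block these 3 were called lower as well (adjusted p = 0.0113, 0.0105 and 0.00733, and 0.252, 0.261 and 0.0909 without it). They were also called lower after quantile normalization (0.0455, 0.0165 and 0.0125) and with array weights (0.0182, 0.00462 and 0.000662). None of them was called in a fit with 1 array left out. Atp6v1h, a regulatory subunit of the head, differed at -0.04 ± 0.15, with pairs 1, 2 and 3 at 0.03, -0.24 and 0.10.

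**Figure D3:**
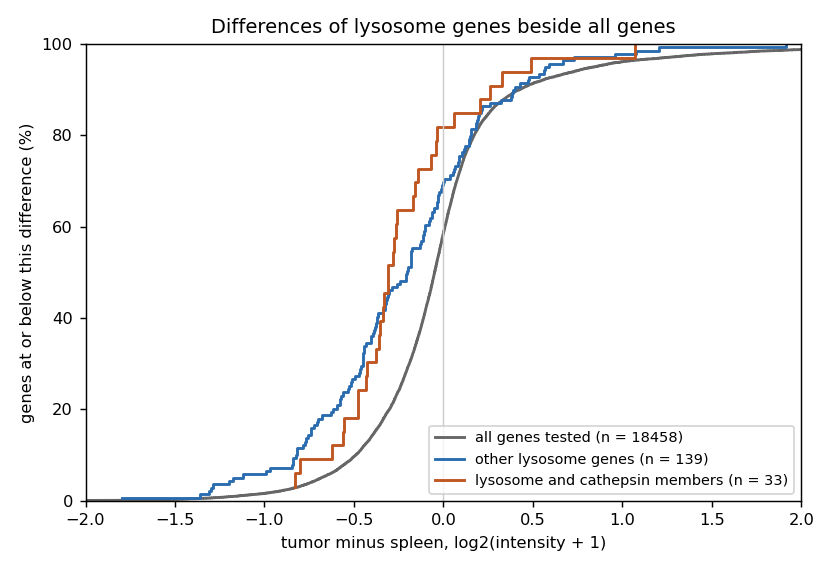
Share of genes (y axis, percent) at or below each difference, tumor minus spleen on the log2(intensity + 1) scale (x axis, drawn from -2 to 2), for the 33 members, 139 other lysosome genes and all 18458 genes tested. The curve of the members lies left of that of all genes over most of the range, with medians of -0.31 and -0.05.

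Other genes of the organelle were read from lists of the same pathway, 139 genes tested that are no members. Of these, 5 were called higher and 23 lower, 3.6% and 16.5%, against 5.73% and 4.85% of all genes. With the replicate block 16 were higher and 60 lower (43.2% lower), against 11.7% and 17.3% of all genes. The median difference of the 139 genes was -0.20. Leaving out spleen 1, spleen 2, tumor 1 or tumor 2 lowered the 28 calls to 15, 14, 11 and 15. Like the members, most of the hydrolases were lower: 28 of 30 further hydrolases were below 0 and 9 were called lower (0 higher by limma, also at an unadjusted p under 0.05), with a median of -0.45. The largest falls were those of the phospholipase Pla2g15 (-1.36 ± 0.16, adjusted p = 0.000944), of Sgsh, a sulfatase of heparan sulfate (-1.31 ± 0.19), and of the acid sphingomyelinase Smpd1 (-0.85 ± 0.22). Smpd1 lost its call without any array other than tumor 3 (adjusted p up to 0.176). Pla2g15 and Smpd1 have 2 probe sets each, and the dimmer of them was not read on its own.

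Cst7 rose while the other inhibitors were not called. It encodes cystatin F, an inhibitor that acts inside the endosomes and lysosomes of immune cells and that can block cathepsin C. Cst7 had levels of 5.81, 5.78 and 6.0 in spleen and 7.05, 7.20 and 6.95 in tumor, a rise of 1.20 ± 0.15 (limma adjusted p = 0.00133), and was called with each array left out in turn, as Ctsc was. The other 5 tested inhibitors ranged from -0.25 to 0.32; Stfa1, Stfa2 and Stfa3 among them are near-identical copies whose probes may read each other. Of 7 further cathepsins 1 was called, Ctse, an aspartic protease of endosomes, at -0.82 ± 0.20 (adjusted p = 0.0333, lost without spleen 1, spleen 3, tumor 1 or tumor 2). Ctss, the main protease of invariant chain removal, had 12.79, 12.80 and 12.94 in spleen and 12.77, 12.67 and 12.99 in tumor, chosen after its values were seen, and differed at -0.03 ± 0.15.

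Further membrane proteins held the largest fall and went both ways, 2 called higher and 4 lower of 28. Tpcn1, a cation channel of endosomes and lysosomes, had levels of 7.52, 7.64 and 7.64 in spleen and 5.68, 6.0 and 5.74 in tumor, at -1.80 ± 0.15 (limma adjusted p = 0.000147). Slc36a1, a proton-coupled amino acid carrier, stood at -1.30 ± 0.15 and Ctns, the cystine exporter, at -1.29 ± 0.17; all 3 were called with each array left out in turn. The rises were those of the intramembrane protease Sppl2a (1.07 ± 0.17, adjusted p = 0.0052) and of Slc15a3, a carrier of histidine and peptides (0.73 ± 0.15, adjusted p = 0.0179). Slc15a3 was not called without spleen 1, spleen 2 or tumor 2. Of 19 further pump genes, 0 were called in the fit with group alone (limma, with 3 lower and 3 higher at an unadjusted p under 0.05). With the block 3 were higher and 4 lower (21.1% lower), against 11.7% and 17.3% of all genes. The smallest p among the 19 with group alone were those of Atp6v1d (0.59 ± 0.18, adjusted p = 0.0732) and Atp6v0a2 (0.53 ± 0.16, adjusted p = 0.0845). Both lay above 0, unlike the 5 pump members.

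Sorting and sensing genes had falls and no called rise in the fit with group alone. Of 12 genes that deliver enzymes to the lysosome 2 were called lower (limma; 0 higher, and 1 at an unadjusted p under 0.05), Sort1 (-0.77 ± 0.19, adjusted p = 0.0338) and Igf2r, the large mannose-6-phosphate receptor (-0.71 ± 0.15, adjusted p = 0.0187). Of 19 genes of nutrient sensing at the lysosome 4 were called lower (0 higher, and 2 at an unadjusted p under 0.05). They include Fnip2 (-1.17 ± 0.18, adjusted p = 0.00407) and Flcn (-1.12 ± 0.16, adjusted p = 0.00276), which form the complex that lets mTORC1 hold TFEB in the cytosol, and Tsc1 (-0.84 ± 0.21, adjusted p = 0.0377). No single omitted array ended the calls of Fnip2 and Flcn. Sort1, Igf2r and Tsc1 lost it without spleen 1, spleen 2, tumor 1 or tumor 2, and Sort1 and Tsc1 also without spleen 3. Sort1 has 2 probe sets, and the dimmer was not read on its own. With the replicate block, 6 sorting genes were lower (50%) and 1 higher (Gnptab, 0.67 ± 0.21). Of the sensing genes, 10 were lower (52.6%) and 2 higher (Tfec, 0.57 ± 0.23, and Mtor, 0.39 ± 0.17). Over all genes the block called 17.3% lower and 11.7% higher. The 3 rises were chosen for naming after their values were seen.

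Among 18 genes of autophagy and membrane repair 2 were called higher and 3 lower. Lgals9 and Lgals8, galectins that bind sugars exposed in damaged lysosomes, stood at 1.92 ± 0.21 and 0.96 ± 0.24 (limma adjusted p = 0.000651 and 0.0367). Lgals9 had 9.90, 9.96 and 10.55 in spleen and 11.98, 11.91 and 12.27 in tumor and kept its call with each array left out, while Lgals8 kept it without spleen 3 alone. The falls were those of Plekhm1, an adaptor for fusion with lysosomes (-0.99 ± 0.18), of the conjugation enzyme Atg7 (-0.97 ± 0.18) and of Ulk1, the kinase that starts autophagy (-0.72 ± 0.18). Plekhm1 and Atg7 lost the call without tumor 1, and Ulk1 kept it without tumor 3 alone.

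**Figure D4:**
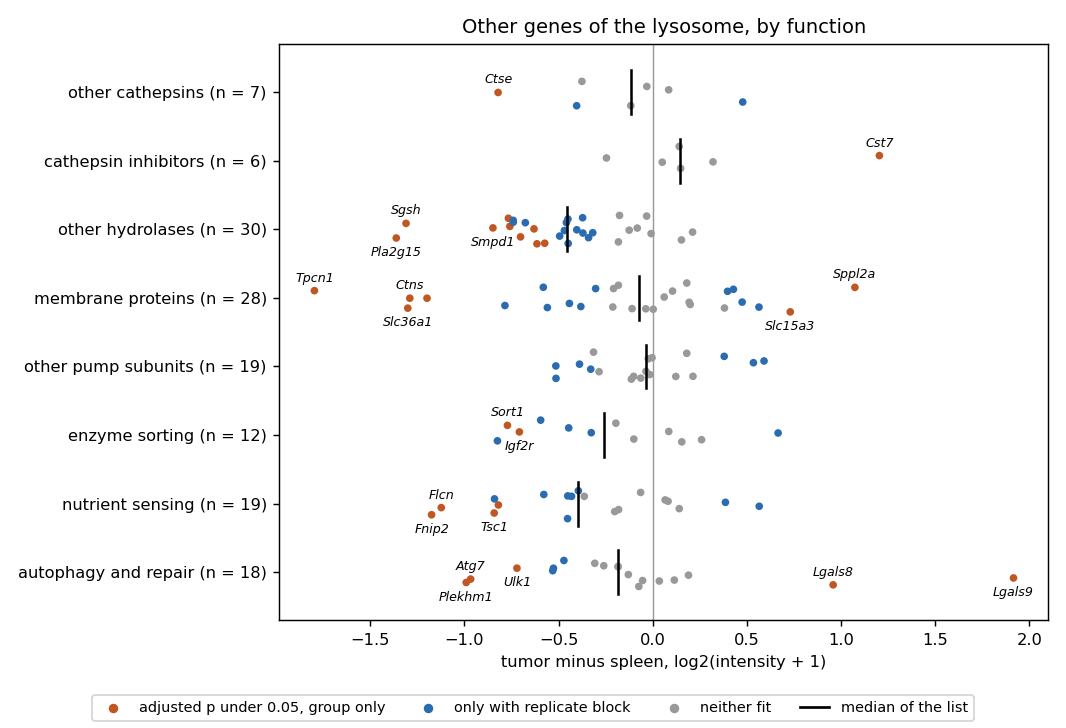
Difference of the 139 other lysosome genes, tumor minus spleen on the log2(intensity + 1) scale (x axis), by list (y axis, with a vertical scatter that has no meaning); orange points were called in the fit with group alone, blue points in the fit with the replicate block and not in that one, grey points in neither of both fits, and black lines are list medians. The hydrolases lie mostly left of 0, and Tpcn1 (-1.80) and Lgals9 (1.92) mark the ends.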

How the data were processed

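Total RNA from 6 samples was hybridised to 1 array each. The authors deposited 1 table of linear intensity values per probe set, made with RMA (background correction, normalization and summary of probes) per the submitters' processing notes; version, settings and genome build are not stated there. Of 41345 probe sets, 23521 had 1 gene symbol, 1814 several and 16010 were not listed in the platform annotation. Values were taken as log2(intensity + 1), and a two-sided limma 3.58.1 test (eBayes, under R 4.3.3) of the tumor minus spleen difference used group alone, with Benjamini-Hochberg adjustment over 18458 genes; the script was tested on simulated data. The alternatives were a replicate block, the arrays numbered 1 and 2 alone, quantile normalization, median centring, array weights, a pseudocount of 16, other filters, the mean of probe sets, a trended robust fit and each array left out. Same-numbered spleen and tumor arrays deviated together from their group means (correlations over genes of 0.36, 0.44 and 0.71). Number 1 also correlated with number 2 across groups (0.46 and 0.35), and spleen 1 more with tumor 2 (0.46) than with tumor 1 (0.36). Number 3 correlated with the other numbers across groups at -0.59 to -0.44. The values thus set the arrays numbered 3 apart but do not tell number 1 from number 2. The replicate block assumes 3 pairs, which the labels do not give. The number of arrays, 3 per group, limits the precision. Members and lists were chosen with earlier results of these data known. All members were named, and from each other list up to 3 called genes per direction by size, or the 2 of smallest p.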

Additional observations from a re-analysis of the deposited data

How the results depend on the processing

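The direction of the members held better than the calls. With the replicate block, members called went from 7 to 19 (lower: 6 to 17), all genes from 1952 to 5346 and other lysosome genes from 28 to 76. The same counts were 11, 2936 and 49 on the arrays numbered 1 and 2 alone (9 members lower); 14, 3506 and 61 after quantile normalization (12 lower); 12, 3289 and 52 after median centring (10 lower); and 25, 7102 and 86 with array weights (20 lower). Block and quantile normalization together, chosen after seeing the data, gave 21, 5403 and 76 (19 lower). With 1 array left out, which leaves 2 in that group, the counts were 1 to 6 members, 0 to 5 lower, 1011 to 1924 genes and 11 to 28 other lysosome genes. Gla turned positive with array weights (0.062) and without spleen 3 or tumor 2, and ranged from -0.27 to 0.20 with 1 array left out. Atp6v1h turned positive without tumor 2, in a range from -0.14 to 0.060; the cause was not tested. The pseudocount, the filters, the mean of probe sets and the trended robust fit kept each of these counts within 1.5 times. The block ended none of the 7 calls. With 3 arrays per group, a call missed here does not show that a gene did not differ.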
